A study of Schizosaccharomyces pombe with 4 samples.

Results

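The 8 genes described here govern the supply of copper and zinc in fission yeast (Schizosaccharomyces pombe). They were taken by name from the 7092 genes of the deposited expression table: the copper transporter genes ctr4, ctr5 and ctr6, the copper regulator gene cuf1, the zinc transporter genes zrt1 and zhf1, the zinc regulator gene loz1 and the metallothionein gene zym1. All 8 were found, and all 8 passed the filter used here, a status of OK in the authors' comparison and a mean of at least 1 FPKM, as did 6219 genes in all. FPKM counts fragments per kilobase of transcript, scaled to sequencing depth, so levels of different genes can be set side by side per length.

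RNA came from 4 libraries of homothallic (h90) cells that carry, per the labels, ade6, leu1 and ura4 alleles and a pcr1 gene replaced by ura4+. The 2 libraries of the vector group held the empty plasmid pREP41, and the 2 libraries of the Atf1 group held pREP41-Atf1. In pREP41 the insert is driven by a form of the nmt1 promoter, which thiamine represses. Cultures were kept at 30 °C, first overnight in 20 µM thiamine, then washed and left 24 h in its absence. The comparison asks how expression differs when the stress transcription factor Atf1 is over-expressed in cells without Pcr1, its usual partner. The tables hold 1 pooled value per group and gene, so no value below has an SD and none can be checked against replicates. A gene is called only where the authors' q-value is under 0.05.

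Copper enters a fission yeast cell through a plasma membrane complex of Ctr4 and Ctr5, while Ctr6 sits in the vacuole membrane and releases stored copper. The factor Cuf1 switches these genes on when copper is scarce, and it is known to lower genes of reductive iron uptake. Zinc enters through Zrt1, and Zhf1 moves it from the cytosol into the endoplasmic reticulum. Loz1 represses zinc uptake genes, and its own gene, when zinc is plentiful, and the small metallothionein Zym1 binds zinc ions.

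The labels were not borne out by the genes they name. The FPKM of atf1 was 54.4 in the Atf1-labelled group and 60.9 in the vector-labelled group. That of pcr1 was 66.4 and 35.8, and ura4 was listed at 0 and at 124.8. The locus of atf1 holds 2 genes, and which part of pcr1 was deleted is not stated in the labels. Directions below are therefore between libraries by their labels. Structural RNAs, which have no poly(A) tail, had a median log2 difference of 2.72 over 49 RNAs against -0.22 over 4965 protein-coding genes. Their part in the results below was not tested.

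The sequences before the gene starts hold the letters that the known regulators read, and they are shown because the members differ in them. Matches were searched on both strands in the 700 bases before each gene start annotated by RefSeq in the assembly ASM294v3. The copper-signalling element, the site of Cuf1, had 2 matches each at ctr4 and ctr5, 1 each at ctr6, cuf1, zrt1 and zym1, and none at loz1 and zhf1. Of 5112 such windows 51.7% held at least 1 match, so a single match says little. A pair on 1 strand with starts 10 to 20 bases apart, a pattern defined after ctr4 and ctr5 were seen, was in 0.626% of windows. Capitals mark the copper-signalling elements in the stretches of ctr4 (chrIII:817839-817888, + strand), ctr5 (chrI:3635289-3635318, + strand) and ctr6 (chrII:2100050-2100079, + strand), given from 5′ to 3′. The stretch of ctr6 lies inside the locus of ctr6 in the authors' deposited table, so that annotation may count it as transcribed. The stretches shown for ctr5 and zrt1 also lie inside their deposited loci, which hold other genes as well. For ctr4 the RefSeq annotation gives 0 bases before the coding sequence, so its window ends at the coding start. That window reaches into the deposited locus of ctr4, which begins at 818302, while the stretch shown lies before it.
ctr4: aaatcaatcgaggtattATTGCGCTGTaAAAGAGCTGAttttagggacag
ctr5: ggaATTTTGCTGAgcgaTTATAGCTGGtag
ctr6: accattagtgtacGTGGTGCTGGagtggat

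The zinc genes carried another set of letters. The core of the Loz1 site, CGNNGATC, had 4 matches at loz1, 2 at zrt1 and 1 at zhf1, and none at zym1 or the 4 copper genes. It was present in 8.37% of all windows, and 0.704% held at least 2 matches. The core of the site of Atf1 and Pcr1, TGACGT, had 1 match each at zrt1 and loz1 and none at the other 6 genes, against 10.9% of all windows. Capitals mark the CGNNGATC core at zrt1 (chrII:3606962-3607011, + strand) and 2 overlapping cores on opposite strands at loz1 (chrI:4195258-4195307, - strand). In the second stretch of zrt1 (chrII:3606677-3606726, + strand) capitals mark a CGNNGATC core and a TGACGT core, both on the opposite strand, which overlap.
zrt1, near: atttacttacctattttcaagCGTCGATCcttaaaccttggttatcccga
loz1: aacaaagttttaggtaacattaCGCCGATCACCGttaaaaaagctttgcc
zrt1, far: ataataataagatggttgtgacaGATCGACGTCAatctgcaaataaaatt

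The only called member, zym1, held neither core. Its 120 bases before the gene start (chrI:2381546-2381665, + strand) are shown with the letters TATAAA in capitals, which begin 32 bases before the start. TATAAA was in 78.6% of all windows. A match or its absence describes these letters only.
zym1: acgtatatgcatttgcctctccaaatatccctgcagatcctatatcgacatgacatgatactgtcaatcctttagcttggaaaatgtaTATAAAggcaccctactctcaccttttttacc

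**Figure D1:**
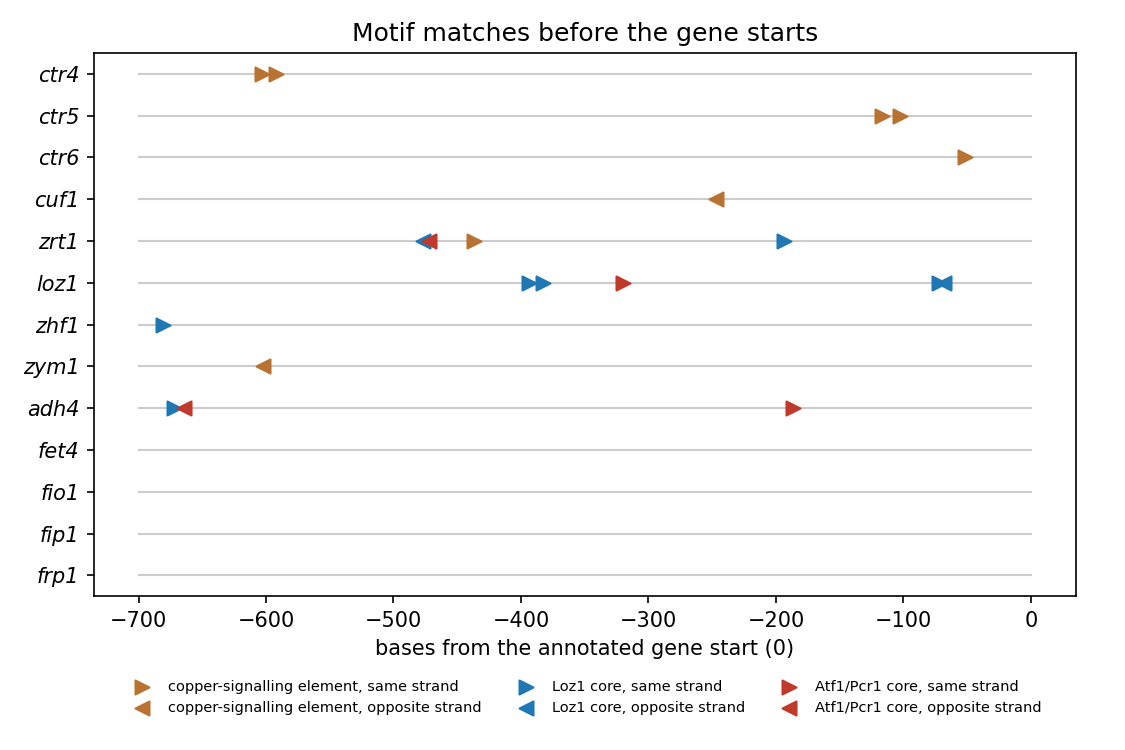
Motif matches in the 700 bases before the annotated start (position 0) of the 8 genes and of 5 related genes; the horizontal axis is the distance in bases, and arrowheads point along the strand of the match. The copper-signalling element, in 51.7% of all windows, has 2 matches each at ctr4 and ctr5 and 1 each at ctr6, cuf1, zrt1 and zym1. The Loz1 core has 4 matches at loz1, 2 at zrt1 and 1 each at zhf1 and adh4.

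Of the 8 genes, the authors' deposited table calls 1 higher with the Atf1 label, zym1, where 1.82% of tested genes were called higher. It calls 0 lower, where 0.129% of tested genes were called lower, so that 1 of 8 was called in either direction against 1.95%. At the authors' unadjusted p under 0.05, zym1 and zrt1 were higher (6.8% of tested genes) and cuf1 was lower (4.04%). Differences are given as log2(FPKM + 1) with the Atf1 label minus the vector label, on which differences of weakly expressed genes come out too small. By that value 3 genes (zym1, zrt1 and loz1) were at least 2-fold higher, where 15.5% of tested genes were, and 1 (cuf1) was at least 2-fold lower, where 13.1% were. No member was at least 2-fold lower with a pseudocount of 5, median-of-ratios scaling, quantile normalization or a mean of at least 10 FPKM, which leaves out cuf1. In that order 5.08%, 9.79%, 13.0% and 11.0% of tested genes were, so these counts of 0 are near the background. With FPKM totals made equal between the groups, zym1 and zrt1 were at least 2-fold higher, where 8.75% of tested genes were. The 3 genes ctr4, cuf1 and zhf1 were then at least 2-fold lower, where 37.4% of tested genes were, so that count is near the background. The median difference was 0.83 over the 8 genes and -0.11 over all tested genes.

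**Figure D2:**
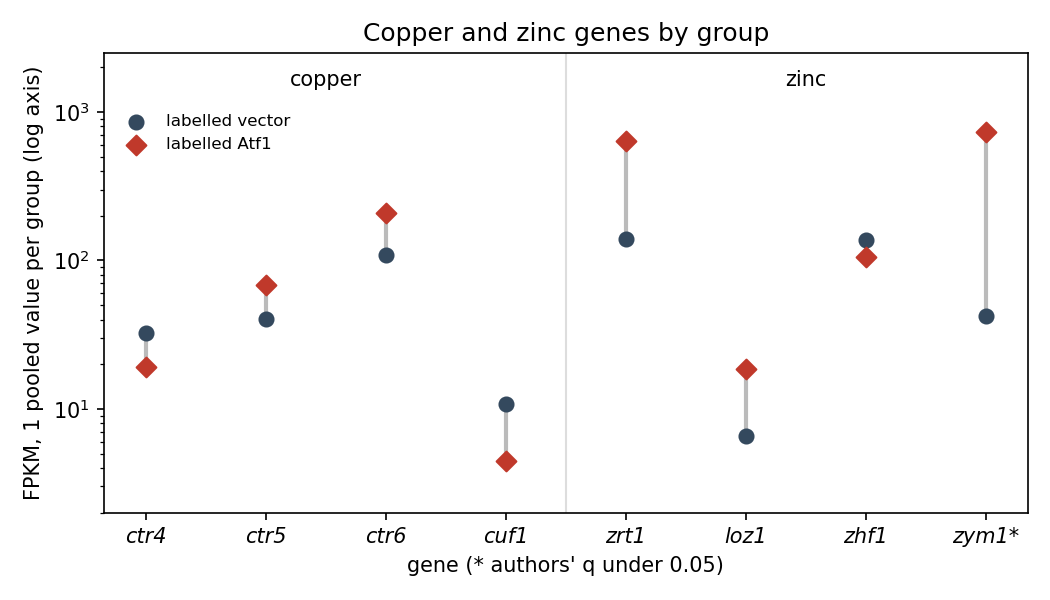
FPKM of each gene on a log axis, 1 pooled value per group (circles, vector label; diamonds, Atf1 label), with a grey line joining the pair; no error can be drawn. The widest gaps are at zym1 (42.4 and 729 FPKM) and zrt1 (139 and 637 FPKM), and the narrowest is at zhf1.

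The copper transporter genes did not all differ in the same direction. The level of ctr4 (SPCC1393.10, chromosome III 818302-819361) was 19.2 FPKM under the Atf1 label against 32.3 FPKM under the vector label, a log2 difference of -0.72 (q = 0.997 in the authors' deposited table). The level of its partner ctr5 (SPAC1142.05, chromosome I 3635143-3636572) was 68.4 and 40.5 FPKM, a difference of 0.74 (q = 0.959 in the authors' deposited table). So the gene of one part of the uptake complex was lower and that of the other higher, neither with a call. The ratio of ctr5 to ctr4 within a group, which multiplying all FPKM of a group by 1 factor leaves as it is but quantile normalization does not, was 3.56 under the Atf1 label against 1.25 under the vector label. The locus of ctr5 also holds SPNCRNA.923, an RNA on the other strand, at 1.62 and 3.18 FPKM. In the sequences above, both genes have a close pair of copper-signalling elements.

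The vacuolar copper transporter gene ctr6 (SPBC23G7.16, chromosome II 2100018-2101253) was the most abundant of the copper genes. It was at 209 FPKM under the Atf1 label against 109 FPKM under the vector label, a log2 difference of 0.93 (q = 0.802 in the authors' deposited table). Its ratio to ctr5 was close in both groups, 3.05 and 2.69, while its ratio to ctr4 was 10.8 and 3.38. It is the only one of the 8 genes with several exons, 5 in the RefSeq annotation. The regulator gene cuf1 (SPAC31A2.11c, chromosome I 407714-409872) was at 4.49 and 10.8 FPKM, a difference of -1.10, with p = 0.0398 and q = 0.607 in the authors' deposited table. That difference was below those of all but 9.86% of tested genes. With the Atf1 label cuf1 had the lowest level of the 8 genes.

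Among the zinc genes the metallothionein gene stood apart. The gene zym1 (SPAC22H10.13, chromosome I 2381690-2382200), which encodes a protein of 50 residues, was at 729 FPKM under the Atf1 label against 42.4 FPKM under the vector label. The log2 difference of 4.07 was above that of 98.6% of tested genes, and the authors' deposited table calls it at q = 0.00809. Its p-value is the smallest in that table, a floor that 75 genes share. Within the 8 genes zym1 was in place 4 by level with the vector label and in place 1 with the Atf1 label. Its level lay above that of 72.8% of tested genes in the first group and 95.0% in the second. In RNA of whole cultures, more RNA per cell cannot be told apart from more cells with that RNA. The gene is alone in its locus and lies 2382 kb from the nearer chromosome end.

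The zinc uptake gene zrt1 (SPBC16D10.06, chromosome II 3605142-3611858) was at 637 and 139 FPKM with the Atf1 and vector labels. The log2 difference was 2.18, above that of 95.0% of tested genes, but with p = 0.0017 and q = 0.109 the authors' deposited table does not call it. Adjusting the authors' p-values again over the 6452 genes with status OK gave 0.0677, which does not pass either. The value is uncertain because the locus of zrt1 holds 4 genes, of which the other 3 were low: the silencing deacetylase gene sir2 was at 9.90 and 17.9 FPKM, SPNCRNA.1622 at 2.10 and 3.22 FPKM, and SPNCRNA.425 at 22.7 and 15.9 FPKM. Of these, SPNCRNA.425 lies on the strand of zrt1.

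The repressor gene loz1 (SPAC25B8.19c, chromosome I 4190288-4195228) was at 18.4 FPKM under the Atf1 label against 6.61 FPKM under the vector label. The log2 difference was 1.35 (q = 0.940 in the authors' deposited table). Its locus holds 3 genes, and the other two, ypf1 and SPAC25B8.18 on the other strand, were lower with the Atf1 label, at 18.7 and 32.9 FPKM and at 24.3 and 42.1 FPKM. The zinc storage gene zhf1 (SPAC23C11.14, chromosome I 2158659-2160086) was at 105 and 137 FPKM, a difference of -0.39 (q = 0.997 in the authors' deposited table). On the values as deposited, this was the smallest difference of the 8 genes. The difference of zhf1 was -0.82 with quantile normalization and -1.05 with equal FPKM totals, where ctr5 and ctr6 had smaller ones.

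Since zhf1 was lower with the Atf1 label and the other zinc genes higher, their ratios to zhf1 had to be higher there. The ratio of zrt1 to zhf1 was 6.08 under the Atf1 label against 1.01 under the vector label, so both levels were nearly equal in the vector-labelled group. The ratio of zym1 to zhf1 was 6.96 and 0.309, and that of loz1 to zhf1 was 0.176 and 0.0481. The ratio of zrt1 to its repressor's gene loz1 differed less, at 34.6 under the Atf1 label and 21.1 under the vector label. These ratios have no error, and none was tested.

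In order of level, the vector-labelled group had zrt1, zhf1, ctr6, zym1, ctr5, ctr4, cuf1 and loz1. With the Atf1 label the order was zym1, zrt1, ctr6, zhf1, ctr5, ctr4, loz1 and cuf1. Whether neighbours in these orders differ beyond their spread cannot be said from 1 value per group. With 2 values per gene, likeness of pattern to other genes could not be measured. None of the 8 genes had a copy at 95% identity over 50% of its length elsewhere in the nuclear genome.

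**Figure D3:**
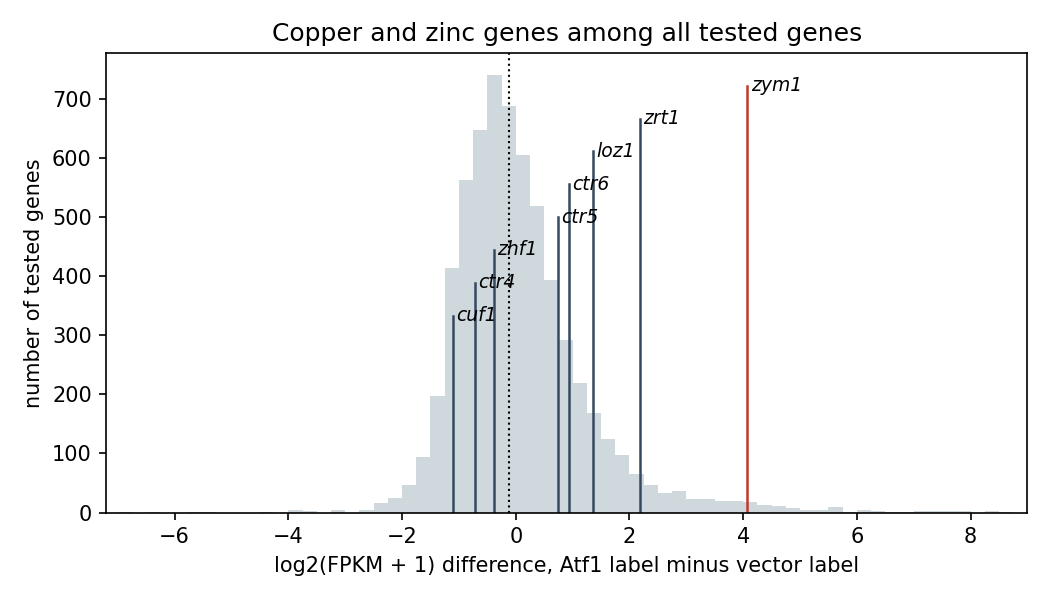
Number of tested genes (vertical axis) by log2(FPKM + 1) difference (horizontal axis, Atf1 label minus vector label), with the 8 genes as vertical lines (red, called; dark, not called; line heights carry no value) and the median of -0.11 dotted. Only zym1, at 4.07, is called, and cuf1, ctr4 and zhf1 lie left of the median.

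The wider set of copper genes was described next, from a list of 14 chosen by role with earlier results of these data known. Of the symbols listed, cox23 had no match, while cox11 matched both cox1101 and cox1102. Of the 14 genes thus matched, 12 were tested. Of these, 1 was called higher and 0 lower, against 1.82% and 0.129% of all tested genes. The median difference was 0.64. That median was 0.39 with quantile normalization, 0.38 with no filter, 0.99 with a mean of at least 10 FPKM and -0.012 with equal FPKM totals. The called gene was fio1, encoding the multicopper ferroxidase of iron uptake, which rose from 6.11 to 51.2 FPKM (q = 0.00809 in the authors' deposited table). The lowest difference was that of sco1, a copper chaperone gene of cytochrome oxidase, at 21.7 and 40.3 FPKM with the Atf1 and vector labels. At an unadjusted p under 0.05 in the authors' deposited table there were 5 genes, all higher, where 6.8% of all tested genes were. Apart from fio1, they were picked out after their values were seen: sod1, ccc2, cao1 and cao2.

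Those genes were grouped by their p-values alone, so a role that they share is not a result. The copper-zinc superoxide dismutase gene sod1 was at 4192 FPKM under the Atf1 label against 980 FPKM under the vector label (q = 0.191 in the authors' deposited table). The copper-exporting ATPase gene ccc2, which loads copper into the secretory pathway, was at 43.1 and 19.2 FPKM (q = 0.439 in the authors' deposited table). The copper amine oxidase genes cao1 and cao2 were at 61.7 and 24.3 FPKM and at 43.3 and 2.17 FPKM. Neither was called (q = 0.255 and q = 0.370 in the authors' deposited table). Their values are uncertain because 3 and 4 genes share their respective loci. Other genes of copper delivery, a role that ccc2 shares, had no unadjusted p under 0.05 in the authors' deposited table. The chaperone gene atx1 was at 71.9 and 61.0 FPKM, cox17 at 179 and 147 FPKM, and the chaperone gene of superoxide dismutase, ccs1, at 182 and 101 FPKM. Both genes of meiotic copper use, cuf2 and mfc1, were low, at 1.07 and 0.645 FPKM and at 1.09 and 0.980 FPKM, and cuf2 did not pass the filter.

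All 3 iron uptake genes listed as repressed by Cuf1 were called higher, where 1.82% of tested genes were. Their median difference was 3.36. The ferric reductase gene frp1 rose from 4.47 to 74.5 FPKM and the permease gene fip1 from 30.9 to 327 FPKM, each with q = 0.00809 in the authors' deposited table, and fio1 is given above. The level of cuf1 itself was 4.49 FPKM under the Atf1 label against 10.8 FPKM under the vector label, and it was not called. None of the 3 had a copper-signalling element in the 700 bases searched. The loci of fip1 (chromosome I 4232998-4234760) and fio1 (chromosome I 4235080-4237874) lie close together, so their windows may overlap. Outside this list, the iron supply genes shu1, str3, sib2 and sib1 had differences of 8.49, 3.15, 3.40 and 0.08. The iron regulator gene fep1 had a difference of 0.30. Whether Cuf1 had a part in any of these differences was not tested.

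Zinc and manganese transport genes other than the members were mostly close in both groups. Of 5 tested, 1 was called higher and 0 lower, against 1.82% and 0.129% of all tested genes. The median difference was 0.06. Under other scalings that median ran from -0.54, with equal FPKM totals, to 0.27, with quantile normalization. The called gene was fet4, which encodes a low-affinity transporter of iron and zinc. It rose from 3.41 to 50.9 FPKM (q = 0.00809 in the authors' deposited table), and its locus holds 2 genes. The transporter gene zrg17 was at 10.4 and 9.94 FPKM, and pmr1, encoding a pump of the secretory pathway, at 12.9 and 18.5 FPKM.

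Both alcohol dehydrogenase genes were higher with the Atf1 label, without a call. The gene adh4, which Loz1 is known to repress when zinc is plentiful, was at 5534 FPKM under the Atf1 label against 523 FPKM under the vector label (p = 0.002 and q = 0.122 in the authors' deposited table). The log2 difference of adh4 was 3.40, between those of zrt1 (2.18) and zym1 (4.07). The gene adh1, whose enzyme needs zinc, was at 2160 and 703 FPKM, with an uncertain value since its locus holds 7 genes. The promoter of adh4 (chrI:158575-158624, - strand) carried a CGNNGATC core and, directly beside it, a TGACGT core on the opposite strand, both in capitals.
adh4: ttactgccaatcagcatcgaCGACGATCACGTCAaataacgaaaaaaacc

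Genes of heavy metal detoxification did not share the difference of zym1. Of 5 tested, 0 were called in either direction in the authors' deposited table, where 1.95% of all tested genes were. Of these 5, 0 had an unadjusted p under 0.05 in that table, where 6.8% of all tested genes were higher and 4.04% lower. Among 5 genes a count of 0 is near those shares. The median difference was -0.54. On the values as deposited, the highest difference was that of zip1, a transcription factor gene of the cadmium response, at 396 and 360 FPKM with the Atf1 and vector labels. The lowest was that of hmt1, encoding the vacuolar transporter of phytochelatins, at 33.2 and 51.0 FPKM, in a locus of 4 genes. The difference of hmt1 (-0.61) was nearly tied with that of hmt2 (-0.60), which was the lower under quantile normalization and equal totals. The difference of zip1 (0.14) was -0.83 with quantile normalization, below that of gsa1 (-0.35), and -0.53 with equal totals. Stress genes that are known to be induced along with zym1 were higher. Of 7, the authors' deposited table calls 3 higher (gpx1, ctt1 and gpd1) and 0 lower, against 1.82% and 0.129% of all tested genes. The median difference was 2.47, and all 7 were above 0, as were 2772 of the 6219 tested genes. The lowest was ntp1 at 133 and 86.0 FPKM, although with equal FPKM totals the difference of ntp1 was -0.03. The values of gpx1, hsp9, ntp1, tps1 and pyp2 are uncertain because other genes share their loci. The genes ctt1 and gpd1 are each alone in their locus.

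**Figure D4:**
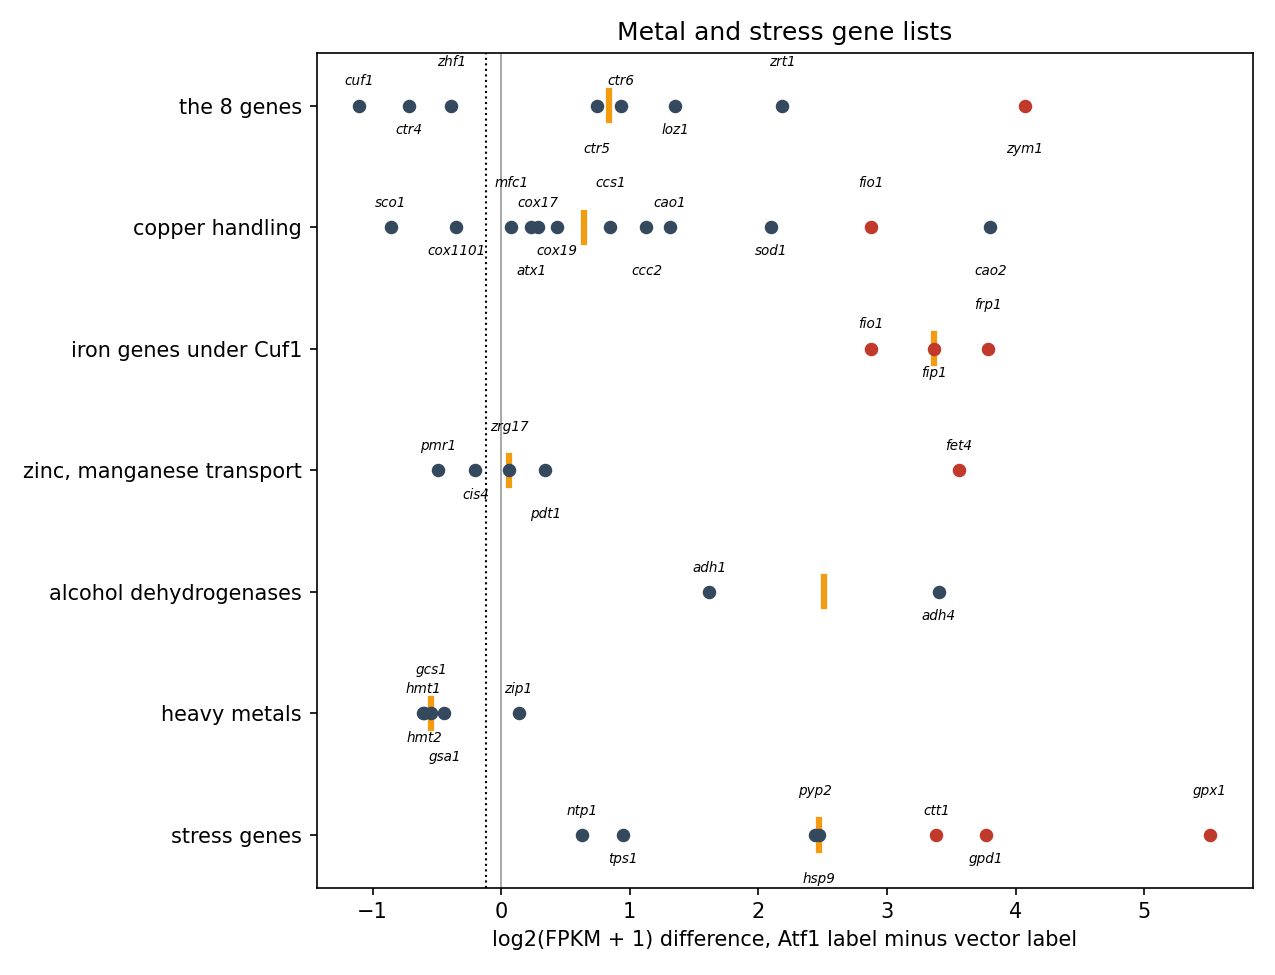
Log2(FPKM + 1) differences (Atf1 label minus vector label) of the 8 genes and of the tested genes of 6 lists; red points are called at the authors' q under 0.05, orange bars are list medians, the dotted line is the median of all tested genes and the solid line is 0. The iron genes under Cuf1 and the stress genes lie above 0 and 4 of the 5 heavy metal genes below it, although ntp1 with equal FPKM totals and zip1 with equal totals or quantile normalization fall below 0.

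The sign of all 8 differences was the same under each scaling tried, while sizes were not. Another pseudocount or filter cannot change a sign. The difference of ctr5 ran from 0.09 to 0.86 and that of ctr6 from 0.27 to 1.05, with the lowest value of both under equal FPKM totals. That of zym1 ran from 3.42 to 4.19 and that of zrt1 from 1.52 to 2.30. Under equal totals the median of all tested genes itself was -0.73, below the difference of each of those 4 genes.

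**Figure D5:**
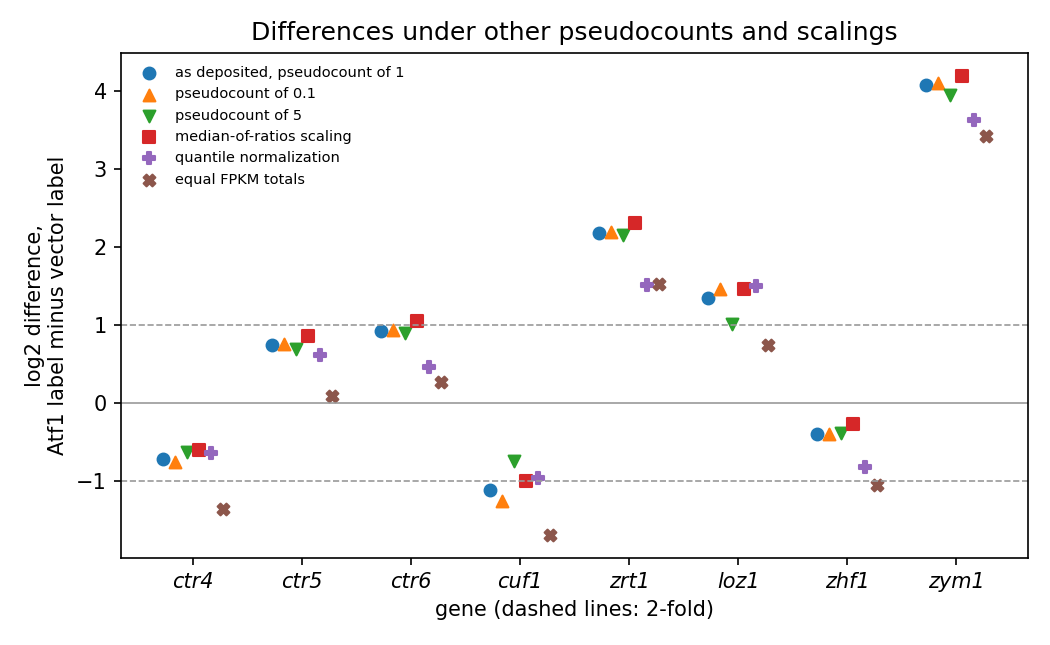
Log2 differences (Atf1 label minus vector label) of the 8 genes under 2 other pseudocounts and 3 other scalings; dashed lines mark 2-fold and the solid line is 0. No gene crosses 0, which only the scalings could bring about, and zym1 stays highest at 3.42 to 4.19.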

How the data were processed

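Per the submitters' processing notes, reads were processed with HISAT2 and Cuffdiff on the build ASM294v2, with no version given. Libraries were made with a stranded mRNA kit, per the labels' protocols. The authors deposited FPKM, 1 pooled value per group and gene, and p-values and q-values of their own comparison. The sources used here do not give the scaling between groups, and depth is unknown. The FPKM of both tables were identical in all 7092 genes. No test was computed, since limma, as planned, needs values per library. The 2 libraries of a group may not be separate cultures, so the authors' p-values may measure technical spread.

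Genes with status OK and a mean of at least 1 FPKM were kept. The genes named were the 8 members, atf1, pcr1 and ura4, and from each list the called genes or else its highest and lowest. Other names were chosen after their values were seen. Members and lists were chosen with earlier results of these data known. Of the listed symbols, cox23 had no match.

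Loci are the deposited ones, 1-based. Sequence came from RefSeq's ASM294v3: the deposited 3′ part began right after its coding end in all 8 members and in 91.1% of 5138 coding genes, so nuclear coordinates were taken as shared. Alternatives changed the pseudocount (0.1 and 5), scaling, filter and threshold. Scaling code was tested on simulated data. Python 3.11.15, numpy 2.4.6, pandas 2.3.3, Biopython 1.88, matplotlib 3.10.9 and BLAST+ 2.17.0 were used.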

Additional observations from a re-analysis of the deposited data

How the results depend on the processing

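No paired analysis was possible because the deposited values are pooled over the libraries of each group, and leaving out each replicate and limma could not be run for the same reason. The counts of called members (1 higher, 0 lower) were the same at q under 0.01, with a 2-fold minimum, with either other filter and with p-values adjusted over this table. The stricter threshold, the 2-fold minimum and the filters leave the authors' q-values as they are. Their counts therefore follow from the member values given above. The wider genes called higher (7 of 33, against 1.82% of all tested genes) were 6 at q under 0.01 and 7 otherwise. The median difference of the 8 genes (0.83) was 0.84 and 0.80 with pseudocounts of 0.1 and 5, 0.95 with median-of-ratios scaling, 0.54 after quantile normalization, 0.18 with equal FPKM totals and 0.93 with a mean of at least 10 FPKM, which leaves out cuf1. The median of the wider genes (0.85) was 0.82 with a pseudocount of 5, then 0.97, 0.38 and 0.19 under those scalings, 0.63 with no filter and 1.04 with a mean of at least 10 FPKM. Members at least 2-fold lower (1, cuf1) were 0 with a pseudocount of 5, a mean of at least 10 FPKM, quantile normalization and median-of-ratios scaling. Of tested genes, from 5.08% to 13.0% were as low there. With equal totals such members were 3, where 37.4% of tested genes were as low. Wider genes at least 2-fold lower were 0 of 33, where 13.1% of tested genes were. They were 1 with quantile normalization, against 13.0%, and 6 of 33 with equal totals, again against 37.4%. Among wider genes, 11 of 228 pairs of gene and alternative changed sign, and 0 of 55 did among the 8 genes. Only the scalings could change a sign, so the pairs with another pseudocount or filter were fixed in advance. The cause of these shifts was not tested, apart from fewer genes at a stricter filter. Median-of-ratios scaling moved the median of all tested genes from -0.11 to -0.0031, and equal totals moved it to -0.73. With depth unknown, the low FPKM of cuf1 and loz1 carry the least certainty.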

Other observations

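The far stretch of zrt1 and the stretch of adh4 shared an arrangement that was noticed only after both promoters had been read, a CGNNGATC core and a TGACGT core that overlap or touch. Of 5112 windows of 700 bases before gene starts, 3 held it (0.0587%). The third belongs to SPAC5H10.07, the neighbour of adh4 on the other strand, whose window reaches the same site. The log2 differences were 3.40 for adh4, 2.18 for zrt1 and -0.07 for SPAC5H10.07, which was at 5.52 FPKM under the Atf1 label against 5.83 FPKM under the vector label. The authors' deposited table calls none of the 3, with p = 0.002, p = 0.0017 and p = 0.930 in that order. The locus of zrt1 holds 4 genes, so its value is uncertain. Whether either factor binds there was not measured in these libraries.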
